A study of Homo sapiens with 12 samples.

Results

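The miR-148 and miR-152 family was followed through small RNA libraries of the MDA-MB-231 cell line, which derives from a human breast cancer without hormone receptors or HER2, and of the extracellular vesicles (EVs) it sheds. The family was taken by name as 5 rows of the miRNA count table: hsa-miR-148a-3p, hsa-miR-148a-5p, hsa-miR-148b-3p, hsa-miR-148b-5p and hsa-miR-152-3p, out of 2588 mature miRNAs in all (the species prefix is left out from here on). The 12 libraries form 6 groups of 2: EVs and cells of a RAB27A knockdown line made with a lentiviral short hairpin RNA, EVs and cells of a miR-122 knockout line edited by CRISPR-Cas9 with 2 guide RNAs, and EVs and cells of a control line that carried the empty vector. RAB27A, a small GTPase, lets vesicle-filled endosomes dock at the cell surface, and miR-122 is best known from hepatocytes. All lines were grown with 10% fetal bovine serum, and EVs were spun from medium conditioned for 24 h without serum but with 1% bovine serum albumin. Whether each line was a single clone, and whether the replicates came from separate cultures, is not given in the sources used here, so p-values measure the spread between these libraries, which may be technical.

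A microRNA hairpin gives a 5p and a 3p arm, and the arm that is loaded into Argonaute pairs with messenger RNAs through its seed, bases 2 to 8 from its 5′ end. In this family the 3p arms are the usual guide strands and the 5p arms the usual passengers. The 3p arms are known to repress the DNA methyltransferase DNMT1 and the non-classical histocompatibility gene HLA-G, miR-148a also represses the LDL receptor in liver cells, and members have been described as suppressors of growth and spread in breast and other tumours.

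Of the 5 members, 4 had a mature sequence in RefSeq (GRCh38.p14), all but miR-148a-5p. The sequences are shown because the 3p arms share a seed while the 5p arm does not, with bases 2 to 8 in capitals.
miR-148a-3p: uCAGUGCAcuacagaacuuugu
miR-148b-3p: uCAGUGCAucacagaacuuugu
miR-152-3p: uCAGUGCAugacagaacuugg
miR-148b-5p: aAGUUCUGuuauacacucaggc
Among all mature human miRNAs in that table, 3 had the seed CAGUGCA, and these were the 3 family 3p arms. miR-148a-3p and miR-148b-3p differ at 2 of 22 positions, C9U and U10C, counted from 1 at the 5′ end with the base of miR-148a-3p first. miR-152-3p differs from miR-148a-3p at C9U, U10G and U20G over 21 positions. How reads that match several miRNAs were counted is not given in the sources used here, so close members may share some reads, but no member had the same counts as another entry of the table. The miR-148a-3p arm lies on the minus strand at chr7:25949922-25949943, and its hairpin overlaps no other gene in GENCODE v29. The miR-148b-3p arm lies on the plus strand at chr12:54337278-54337299 with its 5p arm at chr12:54337240-54337261, outside the exons of COPZ1, a subunit gene of the coatomer that coats Golgi vesicles, on the same strand. The miR-152-3p arm lies on the minus strand at chr17:48037174-48037194, outside the exons of the paralog COPZ2, again on the same strand. These coordinates are those of the reference, not of the build named for the deposited counts, which is hg19.

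Depth differed most for the knockdown EVs, with 164656 and 170366 counts in all, against 2387336 to 3754673 in the other EV libraries and 3140610 to 11840597 in the cells. The edited miRNA, miR-122-5p, had no count in either knockout cell library against 5 and 4 in control cells, and 4 and 3 counts in knockout EVs against 790 and 651 in control EVs. Its counts in the knockdown line were 7 and 5 in EVs and 39 and 40 in cells. Control cells held few counts, so the 0 in knockout cells is weak evidence of the edit. Each count stands for 0.0845 and 0.0904 CPM in control cells but 0.317 and 0.318 CPM in knockdown cells. In EVs it stands for 0.419 and 0.385 CPM in control but 6.07 and 5.87 CPM in knockdown libraries. Per library total, knockdown cells thus held more miR-122-5p than control cells, and the shortfall of knockdown EVs was smaller than raw counts show. RAB27A messenger RNA is not measured by small RNA libraries. The 5 miRNAs listed as high in mesenchymal breast cancer lines, led by miR-100-5p, miR-21-5p and miR-221-3p, summed to between 490198 and 709090 CPM (counts-per-million) in every library, and the 6 listed epithelial miRNAs of the miR-200 family and miR-205-5p to between 129 and 425 CPM. The 10 listed blood cell and serum miRNAs summed to between 10083 and 11719 CPM in control EVs, against 200.4 to 371 CPM in the EVs of the edited lines and 161 to 376 CPM in the cells; miR-223-5p was at 0 in both kinds of edited EVs and in all cells, and miR-150-5p, miR-223-3p and miR-144-5p were at 0 in knockdown EVs. In knockdown EVs 3 counts would be 18.2 and 17.6 CPM, above the 10.9 and 12.3 CPM of miR-223-5p in control EVs. At that depth its 0 in knockdown EVs cannot be read as absence. The part of the blood cell and serum list in the family's EV results was not tested. In bulk libraries, fewer cells or vesicles that carry a miRNA and fewer copies in each cannot be told apart.

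Levels are given in CPM of each library's total. By mean level over the 12 libraries, miR-148a-3p ranked 31 of all miRNAs, miR-148b-3p 40, miR-152-3p 84, miR-148a-5p 172 and miR-148b-5p 255. The 3p arms of miR-148a and miR-148b were thus abundant in this line, and the 5p arms were scarce.

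**Figure D1:**
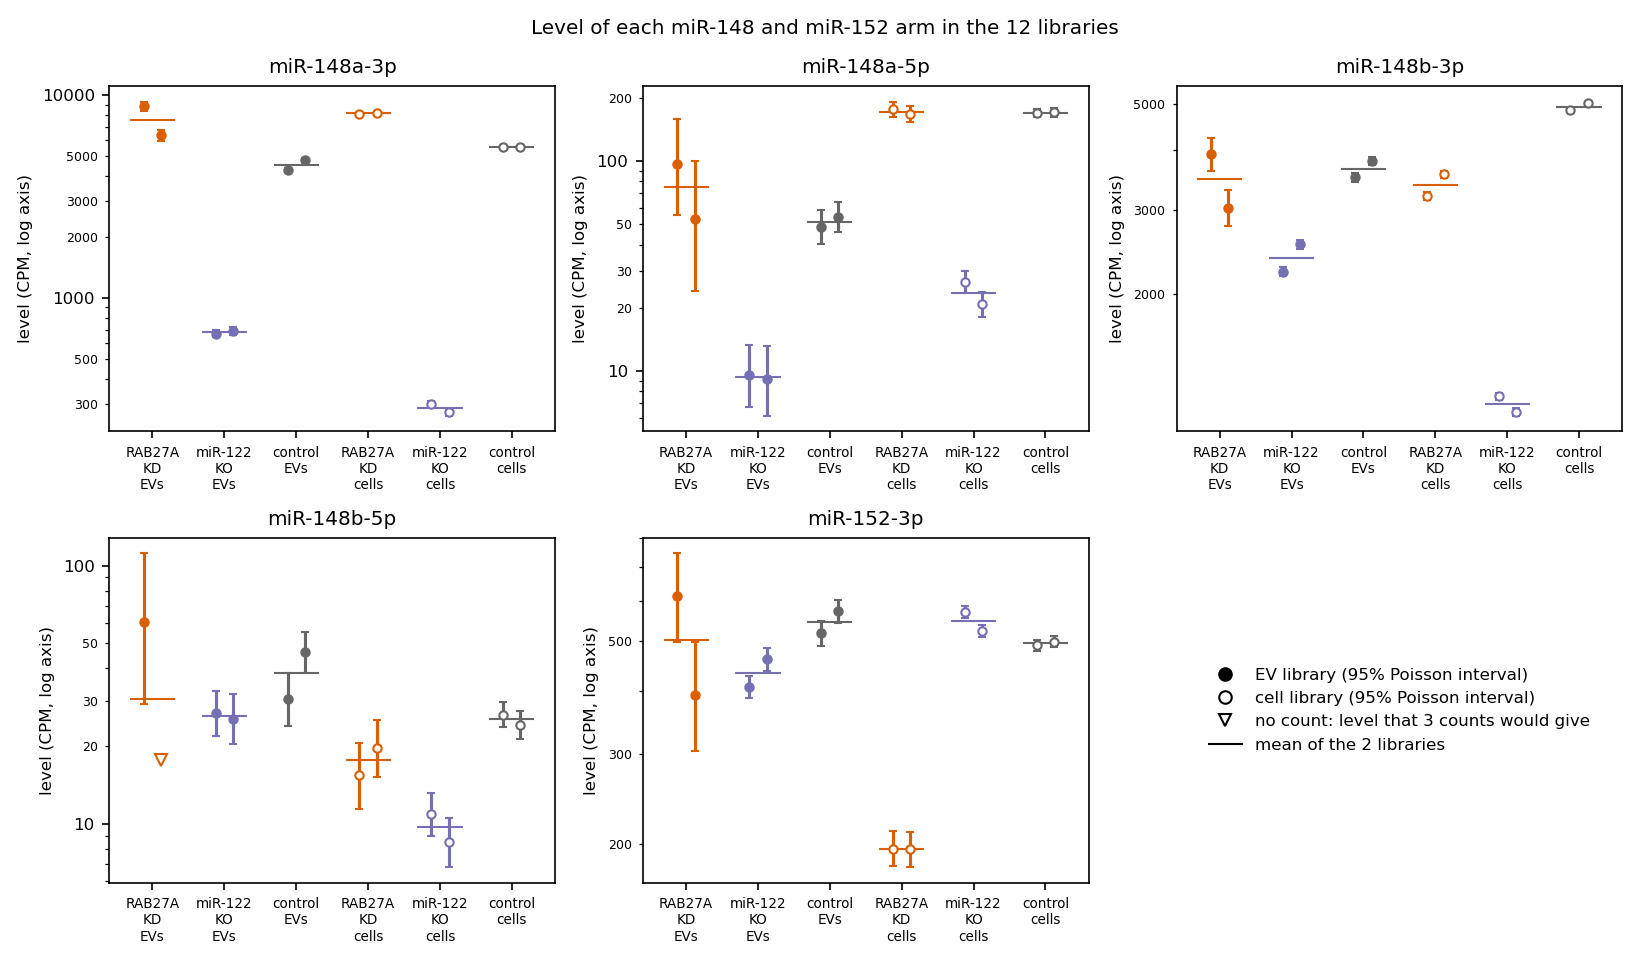
Level of each arm in every library, in CPM on a log axis, by group; bars are 95% exact Poisson intervals, which cover counting error only, and horizontal lines are means of 2 libraries. miR-148a-3p is at 274 to 690 CPM in the miR-122 knockout line and at 4290 CPM or more in all other libraries, while miR-152-3p is lowest in the RAB27A knockdown cells.

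miR-148a-3p, a guide strand that represses DNMT1 in several cell types, was highest in the knockdown line and lowest in the knockout line. In EVs its level was 8831 and 6345 CPM in the knockdown line, 668 and 690 CPM in the knockout line and 4290 and 4821 CPM in the control line. In cells it was 8121 and 8180 CPM in the knockdown line, 300 and 274 CPM in the knockout line and 5579 and 5540 CPM in the control line. Ordered from high to low, the groups were knockdown cells, knockdown EVs, control cells, control EVs, knockout EVs and knockout cells, and neighbours did not overlap, other than knockdown cells with knockdown EVs. With 2 libraries in each group this is a weak criterion, and its share over all miRNAs was not counted.

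The passenger miR-148a-5p had 97.2 and 52.8 CPM in EVs of the knockdown line, 9.59 and 9.16 CPM in those of the knockout line and 48.6 and 54.3 CPM in those of the control line. In cells it had 176 and 167 CPM in the knockdown line, 26.5 and 20.7 CPM in the knockout line and 169.9 and 170.2 CPM in the control line. Knockdown and control libraries overlapped in each fraction, and every knockout library lay below them.

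miR-148b-3p, which has the same seed as miR-148a-3p, had 3917 and 3029 CPM in EVs of the knockdown line, 2230.0 and 2543 CPM in those of the knockout line and 3512 and 3791 CPM in those of the control line. In cells it had 3206 and 3558 CPM in the knockdown line, 1227 and 1139 CPM in the knockout line and 4836 and 5002 CPM in the control line. Control cells were highest, control EVs, knockdown EVs and knockdown cells followed with each overlapping the next, and knockout EVs and then knockout cells lay below all of them.

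Its passenger miR-148b-5p had 0 to 314 counts per library. In EVs of the knockdown line it had 10 counts in replicate 1, or 60.7 CPM, and none in replicate 2, where 3 counts would be 17.6 CPM, so its level there could not be set at this depth. Its level was 26.9 and 25.6 CPM in knockout EVs and 30.6 and 46.2 CPM in control EVs. In cells it was 15.5 and 19.7 CPM in the knockdown line, 10.9 and 8.54 CPM in the knockout line and 26.5 and 24.2 CPM in the control line. The cell groups did not overlap, but the share of all tested miRNAs separated in this way was not counted.

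miR-152-3p ran from 393 to 613 CPM outside the knockdown cells. In EVs it had 613 and 393 CPM in the knockdown line, 407 and 462 CPM in the knockout line and 519 and 573 CPM in the control line. In cells it had 195.5 and 195.9 CPM in the knockdown line, 572 and 524 CPM in the knockout line and 492 and 499.7 CPM in the control line. Ordered by mean from high to low, knockout cells, control EVs, knockdown EVs and control cells each overlapped the next. The knockout EVs came after them but lay within the range of the knockdown EVs, and knockdown cells lay below every other library.

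The knockout cells were set against the control cells to see how the family differed inside cells after the miR-122 edit. All 4 arms of miR-148a and miR-148b were lower in knockout cells, miR-148a most, and miR-152-3p was slightly higher. Fold changes are from edgeR's quasi-likelihood test on TMM-scaled counts, so they can differ from ratios of CPM, and p-values are adjusted by Benjamini-Hochberg over all tested miRNAs. miR-148a-3p averaged 287 CPM ± 18.2 in knockout cells and 5560 ± 27.8 in control cells (SD, n = 2 each), a log2 fold change of −3.92 (SE 0.14, edgeR adjusted p = 5.37e-15) or 15.2-fold lower. Its 5p arm averaged 23.6 CPM ± 4.04 in knockout cells and 170 ± 0.161 in control cells, 5.63-fold lower (−2.49, SE 0.17, edgeR adjusted p = 1.5e-10). miR-148b-3p fell to 1183 CPM ± 62.2 in knockout cells, against 4919 ± 118 in control cells, 3.26-fold lower (−1.70, SE 0.13, edgeR adjusted p = 3.7e-10). The passenger miR-148b-5p fell by 1.03 on the log2 scale (SE 0.21, edgeR adjusted p = 2.8e-04). For these 4 arms no knockout cell library reached the level of a control cell library. With 2 libraries in each group such separation is a weak criterion, and its share over all tested miRNAs was not counted.

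miR-152-3p averaged 548 CPM ± 34.1 in knockout cells and 496 ± 5.78 in control cells, and the log2 fold change was 0.50 (SE 0.13, edgeR adjusted p = 0.00274). This call did not hold with total counts as library sizes (0.14, adjusted p = 0.255), nor without control cell replicate 1 (0.37) or 2 (0.52), knockdown cell replicate 1 (0.44) or 2 (0.39) or knockout cell replicate 1 (0.21). So 5 of 5 members passed the threshold of 0.05 in knockout cells, where 62.3% of the 613 tested miRNAs did, 27.7% being higher and 34.6% lower. The median log2 fold change of the 5 was −1.70, and over all tested miRNAs it was −0.08. Log2 fold changes in this comparison also rank-correlated with the GC content of the mature sequence (Spearman rho 0.45 across 535 miRNAs that have one, which are not independent). The GC content was 40.9% for the 3 miR-148 sequences shown and 47.6% for miR-152-3p. With a correction for that trend miR-148a-3p stood at −3.37 (adjusted p = 1.1e-11) and miR-148b-3p at −1.15 (adjusted p = 4.24e-07), whereas miR-148b-5p was no longer called (−0.48, adjusted p = 0.0594).

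In EVs of the knockout line both arms of miR-148a were lower than in control EVs, and the other members did not pass with TMM scaling. miR-148a-3p averaged 679 CPM ± 15.4 in knockout EVs and 4556 ± 376 in control EVs (SD, n = 2 each), 5.16-fold lower (log2 fold change −2.37, SE 0.15, edgeR adjusted p = 3.84e-08). miR-148a-5p averaged 9.37 CPM ± 0.304 in knockout EVs and 51.4 ± 4.04 in control EVs (log2 fold change −2.07, SE 0.22, edgeR adjusted p = 5.63e-06). Neither arm's libraries overlapped between these groups, and both arms were lower in each of the libraries of both knockout fractions than in any control library of the same fraction. The share of all tested miRNAs without such overlap was not counted. miR-148b-3p averaged 2387 CPM ± 221 in knockout EVs and 3651 ± 197 in control EVs and did not pass with TMM scaling (−0.24, SE 0.13, edgeR adjusted p = 0.176). It passed with total counts (−0.61, adjusted p = 0.00134), with the 4 libraries alone (−0.32, adjusted p = 0.0207) and without knockdown EV replicate 1 (−0.29) or 2 (−0.42). The values of miR-148b-5p (−0.17, SE 0.29, edgeR adjusted p = 0.686) and miR-152-3p (0.05, SE 0.15, edgeR adjusted p = 0.846) did not pass either, and that of miR-152-3p was below 0 with RLE factors (−0.06) and total counts (−0.33). The 2 of 5 members called, both lower, stand beside a share of 41.2% of 488 tested miRNAs called in this comparison, 18.9% higher and 22.3% lower.

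The knockdown cells differed from control cells in a pattern of their own, with miR-148a-3p higher and miR-148b-3p and miR-152-3p lower. miR-148a-3p averaged 8150 CPM ± 41.7 in knockdown cells and 5560 ± 27.8 in control cells, 1.48-fold higher (log2 fold change 0.57, SE 0.12, edgeR adjusted p = 5.12e-04). miR-148b-3p fell to 3382 CPM ± 248 in knockdown cells, against 4919 ± 118 in control cells (−0.53, SE 0.12, edgeR adjusted p = 0.00108). miR-152-3p fell to 196 CPM ± 0.293 in knockdown cells, against 496 ± 5.78 in control cells, 2.51-fold lower (−1.33, SE 0.14, edgeR adjusted p = 7.85e-08). These 3 guide strands did not overlap between the groups, a separation whose share over all tested miRNAs was again not counted. miR-148a-5p (0.03, SE 0.16, edgeR adjusted p = 0.903) and miR-148b-5p (−0.51, SE 0.23, edgeR adjusted p = 0.0651) did not pass. However, miR-148b-5p passed with the 4 libraries alone (−0.48, edgeR adjusted p = 0.0179) and without a filter on low counts (−0.74, edgeR adjusted p = 0.00463). It also did without knockout cell replicate 1 (−0.49) or 2 (−0.51). With 1 member higher and 2 lower, 53.8% of all tested miRNAs were called, 24.3% higher and 29.5% lower. The fall of miR-152-3p held in all 14 alternatives. The calls of miR-148a-3p (0.57, adjusted p = 0.117) and miR-148b-3p (−0.45, adjusted p = 0.224) were lost without knockdown cell replicate 1, and that of miR-148b-3p also without control cell replicate 2 (−0.45, adjusted p = 0.0935).

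In knockdown EVs miR-148a-3p was again higher than in control EVs, at 7588 CPM ± 1757 in knockdown EVs and 4556 ± 376 in control EVs (log2 fold change 0.62, SE 0.15, edgeR adjusted p = 0.00349). The groups did not overlap, a weak criterion with 2 libraries each, and its share over all tested miRNAs was not counted. The call was lost without control EV replicate 1 (0.39, adjusted p = 0.171) or 2 (0.60, adjusted p = 0.0781), without knockdown EV replicate 1 (0.27, adjusted p = 0.106) and without a filter on low counts (0.32, adjusted p = 0.0799). With the GC correction it was larger, at 1.24 (adjusted p = 6.77e-06). The other arms overlapped between knockdown and control EVs. miR-148b-3p averaged 3473 CPM ± 628 in knockdown EVs and 3651 ± 197 in control EVs (−0.19, SE 0.14, edgeR adjusted p = 0.284). Its sign depended on the treatment of GC content (0.43, adjusted p = 0.0158, with the correction), and it was called lower without knockdown EV replicate 1 (−0.48) and without the filter (−0.49). miR-152-3p averaged 503 CPM ± 156 in knockdown EVs and 546 ± 37.7 in control EVs (−0.23, SE 0.19, edgeR adjusted p = 0.339; −0.68 and called without knockdown EV replicate 1; 0.18 and not called with the GC correction). miR-148a-5p, with 16 and 9 counts in knockdown EVs, had a log2 fold change of 0.42 (SE 0.32, edgeR adjusted p = 0.307), which was −0.17 without knockdown EV replicate 1. miR-148b-5p stood at −0.48 (SE 0.68, edgeR adjusted p = 0.609), a fitted value that rests on 10 counts. In this comparison 46.3% of the tested miRNAs were called, 18.9% higher and 27.5% lower, beside 1 of the 5 members. Of all calls here 40.7% were higher, against 56.8% with the GC correction.

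**Figure D2:**
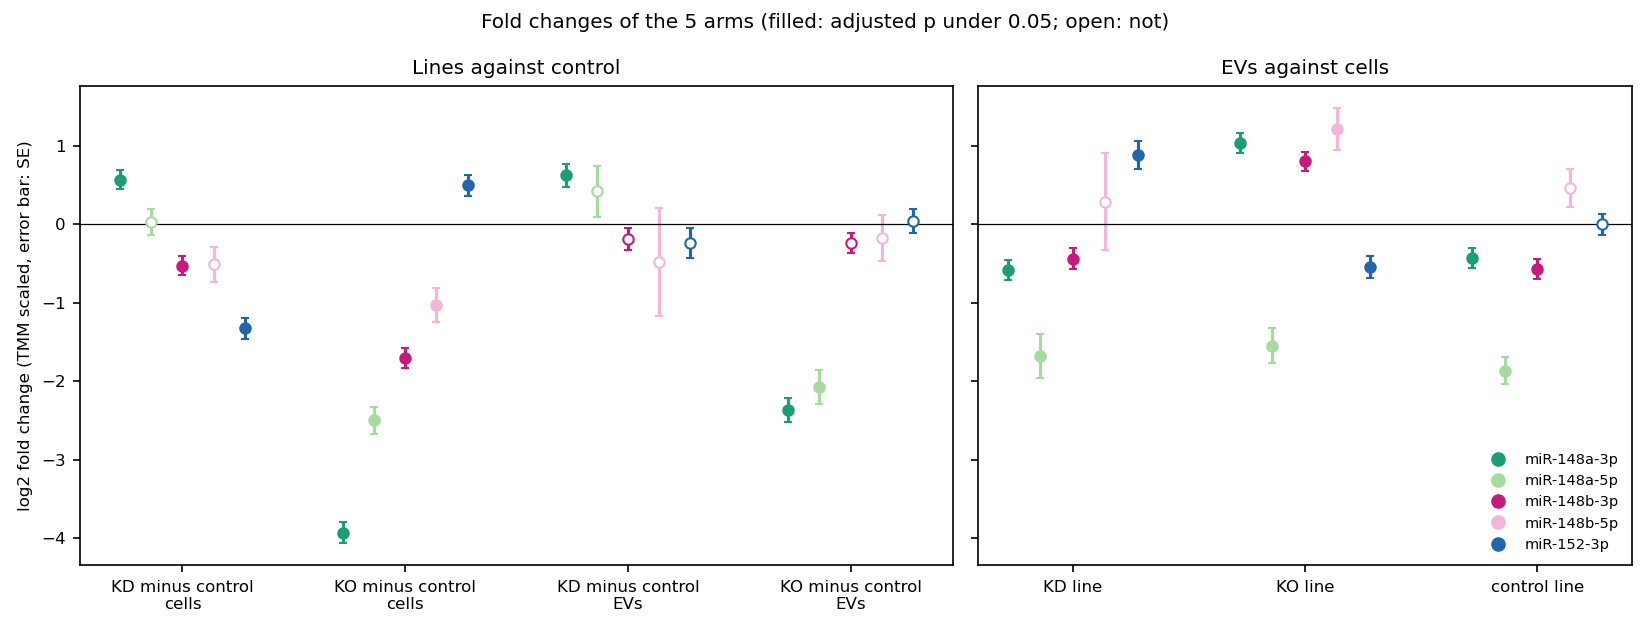
Log2 fold change of each arm (vertical axis, TMM-scaled counts) in the line comparisons on the left and in EVs against cells on the right; error bars are SE and filled points passed an adjusted p of 0.05. miR-148a-3p lies at −3.92 in knockout cells and −2.37 in knockout EVs but at 0.57 and 0.62 in the knockdown line, and miR-148a-5p lies below −1.5 in EVs over cells of all 3 lines.

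The knockdown and knockout lines were also compared directly, since their contrasts with the control share the same control libraries. Between knockout and knockdown cells, 4 of 5 members differed, where 64.4% of all tested miRNAs did, 30.7% higher and 33.8% lower. miR-148a-3p was 22.5-fold lower in knockout than in knockdown cells (log2 fold change −4.49, SE 0.14, edgeR adjusted p = 4.13e-16), miR-148a-5p was 5.74-fold lower (−2.52, SE 0.18) and miR-148b-3p 2.26-fold lower (−1.18, SE 0.12). miR-152-3p went the other way and was 3.54-fold higher in knockout cells (1.82, SE 0.14, edgeR adjusted p = 4.99e-10). miR-148b-5p did not pass (−0.52, SE 0.24, edgeR adjusted p = 0.0705), but did with total counts (−0.86), without control cell replicate 1 (−0.62) and without knockout cell replicate 1 (−0.95). In EVs both miR-148a arms were lower in the knockout than in the knockdown line, miR-148a-3p by 7.96-fold (−2.99, SE 0.16, edgeR adjusted p = 1.25e-08) and miR-148a-5p by 5.62-fold (−2.49, SE 0.39, edgeR adjusted p = 2.26e-04), while 40.4% of all tested miRNAs were called, 22.7% higher and 17.6% lower. miR-152-3p at 0.28 (SE 0.19), which was −0.21 with total counts, and miR-148b-3p at −0.05 (SE 0.14) did not pass there, although miR-152-3p did without knockdown EV replicate 1 (0.67, adjusted p = 0.0347) or without the filter (0.53, adjusted p = 0.0179), and miR-148b-3p did with total counts (−0.54, adjusted p = 0.00521) or the GC correction (−0.46, adjusted p = 0.0111).

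EVs were then set against the cells that released them. With TMM scaling, the 3p arms of miR-148a and miR-148b were somewhat scarcer in EVs than in cells of the knockdown and the control line. In the knockout line both arms were more abundant in EVs. In the knockdown line miR-148a-3p had a log2 fold change of −0.58 in EVs over cells (SE 0.13, edgeR adjusted p = 3.38e-04), in the knockout line 1.03 (SE 0.13, edgeR adjusted p = 8.52e-10) and in the control line −0.43 (SE 0.12, edgeR adjusted p = 0.00308). For miR-148b-3p the same values were −0.44 (SE 0.13, edgeR adjusted p = 0.00992) in the knockdown line, 0.80 (SE 0.12, edgeR adjusted p = 1.7e-07) in the knockout line and −0.57 (SE 0.12, edgeR adjusted p = 9.04e-05) in the control line. The knockout line's rise of both arms held in all 20 alternatives, but was smaller with the GC correction, at 0.51 (adjusted p = 9.58e-04) for miR-148a-3p and 0.28 (adjusted p = 0.0445) for miR-148b-3p. Log2 fold changes of all miRNAs in that comparison rank-correlated with GC content (Spearman rho −0.37 across 506 miRNAs). In the knockdown line the sign for miR-148b-3p turned with total counts (0.04, adjusted p = 0.913) and its call was lost with RLE factors (−0.33, adjusted p = 0.0894), and miR-148a-3p was not called with total counts (−0.10, adjusted p = 0.639). With the GC correction that line had no call for miR-148a-3p (−0.26, adjusted p = 0.187) or miR-148b-3p (−0.12, adjusted p = 0.609). DESeq2 did not call miR-148b-3p there either (−0.33, DESeq2 adjusted p = 0.132). In the control line miR-148a-3p was not called with total counts (−0.29, adjusted p = 0.057) or without control EV replicate 1 (−0.28, adjusted p = 0.214). In the knockdown line the call of miR-148a-3p was also lost in a fit of its 4 libraries alone (−0.43), and that of miR-148b-3p there (−0.29) and without knockdown cell replicate 2 (−0.43, adjusted p = 0.102).

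The passenger miR-148a-5p was lower in EVs than in cells of every line. Its log2 fold change was −1.68 (SE 0.28, edgeR adjusted p = 4.23e-06) in the knockdown line, −1.55 (SE 0.22, edgeR adjusted p = 5.17e-08) in the knockout line and −1.86 (SE 0.17, edgeR adjusted p = 8.99e-14) in the control line, and it was called in the 18 alternatives run for each, which leave out the GC correction. miR-148b-5p was higher in EVs than in cells of the knockout line (1.22, SE 0.27, edgeR adjusted p = 2.01e-04), at 25.6 and 26.9 CPM in EVs against 8.54 and 10.9 CPM in cells. It did not pass in the control line (0.46, SE 0.25, edgeR adjusted p = 0.118, but 0.79 and called without control EV replicate 1) or in the knockdown line (0.29, SE 0.62, edgeR adjusted p = 0.842). miR-152-3p was 1.85-fold higher in EVs than in cells of the knockdown line (0.89, SE 0.18, edgeR adjusted p = 9.46e-05) and 1.46-fold lower in EVs than in cells of the knockout line (−0.54, SE 0.14, edgeR adjusted p = 5.26e-04), with a control line value of 0.00 (SE 0.14, edgeR adjusted p = 1). The knockdown call was lost without knockdown EV replicate 1 (0.34, adjusted p = 0.384), and the knockout call without knockout cell replicate 1 (−0.30) or knockout EV replicate 1 (−0.33). Members called numbered 4 in the knockdown line, where 19.3% of 574 tested miRNAs were called (7.32% higher and 12% lower). They numbered 5 in the knockout line, where 59.1% were called (33.3% higher and 25.8% lower), and 3 in the control line, where 53.7% were called (30.8% higher and 22.8% lower).

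Whether the EV over cell difference itself changed between lines was tested as an interaction on all 12 libraries. In the knockout line it was higher than in the control line by 1.46 on the log2 scale for miR-148a-3p (SE 0.18, edgeR adjusted p = 8.63e-10) and by 1.37 for miR-148b-3p (SE 0.17, edgeR adjusted p = 2.41e-09). For miR-152-3p it was lower, at −0.54 (SE 0.19, edgeR adjusted p = 0.0162), a call lost without any one of 8 libraries, with values of −0.67 to −0.32 over all 12 omissions. Those 8 were both control cell replicates, control EV replicate 2, knockdown cell replicate 1, both knockdown EV replicates and replicate 1 of knockout cells and of knockout EVs. The passengers miR-148a-5p (0.32, SE 0.29, edgeR adjusted p = 0.429) and miR-148b-5p (0.75, SE 0.36, edgeR adjusted p = 0.0878) did not pass. miR-148b-5p did pass in 6 of 19 alternatives. They were the replicate block (0.75) and the fits without control cell replicate 2 (0.84), control EV replicate 2 (1.14), knockdown EV replicate 1 (0.91) or 2 (0.93), or knockout cell replicate 1 (1.09). In the knockdown line the interaction was called for miR-152-3p (0.88, SE 0.22, edgeR adjusted p = 0.00217), and was lost without knockdown EV replicate 1 (0.51, adjusted p = 0.224). The other members' values ran from −0.17 to 0.19 and did not pass; those of miR-148a-3p (0.18) and miR-148b-5p (0.16) turned positive with total counts. miR-148b-3p, at 0.13 (SE 0.18, edgeR adjusted p = 0.729), was called with the GC correction (0.64, adjusted p = 0.00348). These interactions called 3 members in the knockout line, beside 48.3% of tested miRNAs (24.9% higher and 23.3% lower), and 1 member in the knockdown line, beside 18.6% (4.36% higher and 14.3% lower).

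Because the 3 guide strands share a seed, their make-up was read within each library, where library scaling cancels. miR-148a-3p made up 69.5% ± 1.36 of the summed 3p counts in knockdown cells, 14.2% ± 0.096 in knockout cells and 50.7% ± 0.695 in control cells (SD, n = 2 each). The share of miR-148b-3p was 28.8% ± 1.41 in knockdown cells, 58.6% ± 0.245 in knockout cells and 44.8% ± 0.681 in control cells. The share of miR-152-3p was 1.67% ± 0.0438 in knockdown cells and 27.1% ± 0.149 in knockout cells, against 4.52% ± 0.0133 in control cells. It was the smallest share in knockdown and control cells but exceeded that of miR-148a-3p in knockout cells. The libraries of the 3 cell groups did not overlap for any of these shares. With 2 libraries in each group an exact permutation test could not pass 0.05, so none was run.

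In EVs the same order of lines was seen. miR-148a-3p was 65.5% ± 0.797 of the 3p counts in knockdown EVs, 19.4% ± 1.09 in knockout EVs, against 52.0% ± 0.665 in control EVs. miR-152-3p was 4.31% ± 0.399 in knockdown EVs, 12.4% ± 0.119 in knockout EVs, against 6.24% ± 0.0046 in control EVs. The ratio of miR-148a-3p to miR-148b-3p was 2.17 ± 0.113 in knockdown EVs, 0.285 ± 0.02 in knockout EVs, against 1.25 ± 0.0356 in control EVs, close to the cell values of 2.42 ± 0.165 in the knockdown line, 0.242 ± 0.00265 in the knockout line and 1.13 ± 0.0327 in the control line. The ratio of miR-152-3p to miR-148b-3p differed more between fractions: 0.143 ± 0.0189 in EVs and 0.058 ± 0.00435 in cells of the knockdown line, but 0.182 ± 8.36e-04 in EVs and 0.463 ± 0.00448 in cells of the knockout line. The sum of the 3p arms was 11564 CPM ± 2541 in knockdown EVs, 3500.2 ± 275 in knockout EVs, against 8753 ± 611 in control EVs. In cells it was 11728 CPM ± 289.9 in the knockdown line, 2018 ± 114 in the knockout line and 10974 ± 95.6 in the control line, so in the knockdown cells a higher miR-148a-3p stood beside lower miR-148b-3p and miR-152-3p with a sum close to the control's.

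**Figure D3:**
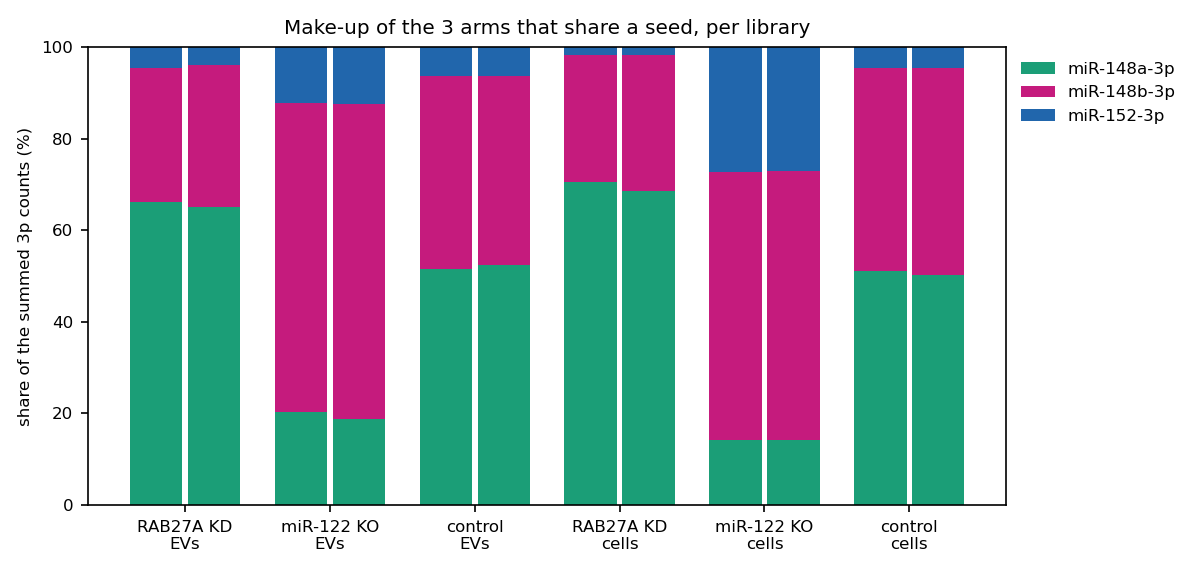
Share of each guide strand in the summed counts of miR-148a-3p, miR-148b-3p and miR-152-3p, in percent, with 1 bar for each library. miR-148a-3p takes 14.2% in knockout cells and 69.5% in knockdown cells, and replicates of a group are close to each other.

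The balance of the arms of each hairpin was read in the same way. The 5p arm was 2.06% ± 0.0863 of all miR-148a counts in knockdown cells, 7.57% ± 0.759 in knockout cells and 2.97% ± 0.0171 in control cells (SD, n = 2 each). In EVs it was 0.957% ± 0.186 in the knockdown line, 1.36% ± 0.074 in the knockout line and 1.12% ± 0.0044 in the control line, so that every EV library lay below every cell library. For miR-148b the 5p share ran from 0.996% to 1.19% in knockout EVs, against 0.744% to 0.882% in knockout cells, and from 0.863% to 1.20% in control EVs, against 0.482% to 0.545% in control cells, so that each EV library of these lines lay above the cells of its line. In knockdown EVs that share was 1.53% in replicate 1, while replicate 2 had 0 of 516 counts, which allows up to 0.581%. The other arm of the miR-152 hairpin, miR-152-5p, is no listed member and had 47 counts over the 12 libraries.

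**Figure D4:**
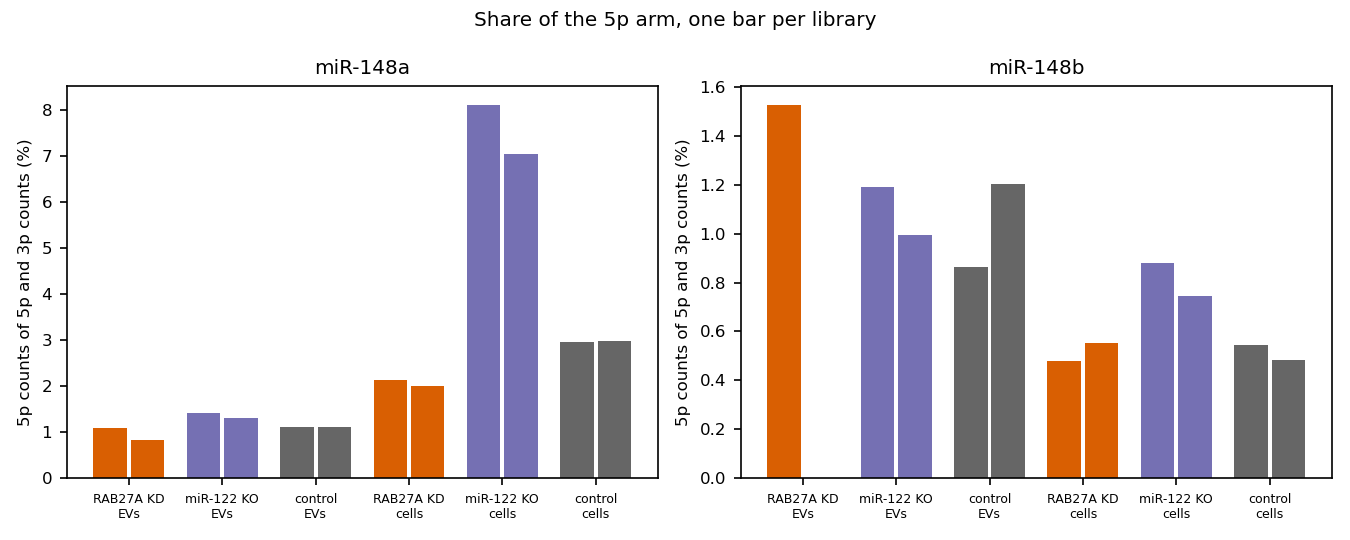
Counts of the 5p arm as a percentage of 5p and 3p counts for miR-148a (left) and miR-148b (right), with 1 bar for each library and vertical axes from 0. For miR-148a the knockout cells reach 7.57% on average and all EV libraries lie under 1.5%; the missing bar for miR-148b is a knockdown EV library with no 5p count.

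The miR-130, miR-301 and miR-454 family carries the bases AGUGCA of the miR-148 seed shifted by 1 position, so that both families can pair with partly overlapping target sites. The shared bases are in capitals.
miR-454-3p: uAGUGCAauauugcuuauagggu
miR-130b-3p: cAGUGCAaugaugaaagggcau
miR-301a-3p: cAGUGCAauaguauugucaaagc
miR-301b-3p: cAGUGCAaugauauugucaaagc
miR-130a-3p is the other listed member. Of these 5, 3 were lower and 1 was higher in knockout cells, with a median log2 fold change of −0.41, where 62.3% of all tested miRNAs were called. miR-454-3p was the most abundant and averaged 299 CPM ± 15 in knockout cells and 6306 ± 33.3 in control cells (−4.06, SE 0.12, edgeR adjusted p = 7.32e-16), miR-301a-3p fell by 1.28 (SE 0.17) and miR-130a-3p fell by 0.41 (SE 0.13). miR-130b-3p rose by 0.69 (SE 0.14), and miR-301b-3p at −0.17 did not pass. In knockout EVs the fall of miR-148a-3p had no counterpart in miR-454-3p, which averaged 3710 CPM ± 13.9 in knockout EVs and 4283 ± 240 in control EVs (0.17, SE 0.10, edgeR adjusted p = 0.23). The EV over cell difference of miR-454-3p was higher in the knockout than in the control line by 4.12 on the log2 scale (SE 0.16, edgeR adjusted p = 3.37e-27), beside 1.46 for miR-148a-3p. In the knockdown line miR-301a-3p and miR-301b-3p were higher in both fractions, by 1.16 (SE 0.28) and 1.57 (SE 0.43) in EVs and by 0.85 (SE 0.16) and 0.97 (SE 0.19) in cells.

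Other miRNAs known to repress DNA methyltransferases are miR-29a-3p, miR-29b-3p and miR-29c-3p for DNMT3A and DNMT3B, and miR-342-3p, miR-185-5p and miR-126-3p for DNMT1. Of these 6, 2 were called higher and 4 lower in knockdown cells, and 2 higher and 3 lower in knockout cells, beside the shares of all miRNAs called that are given above. miR-29a-3p, by far the most abundant at a mean of 15428 CPM, fell by 0.54 (SE 0.11) in knockdown cells and by 0.30 (SE 0.11) in knockout cells. miR-185-5p moved in opposite directions, at −0.52 (SE 0.13) in knockdown cells and 0.57 (SE 0.13) in knockout cells. In EVs 5 of the 6 were lower than control in the knockdown line and 5 of the 6 in the knockout line. Of all tested miRNAs, 27.5% were lower in knockdown EVs and 22.3% in knockout EVs. The list's medians were −1.31 in knockdown EVs and −0.56 in knockout EVs, beside −0.29 and 0.03 over all tested miRNAs. The blood cell and serum list was lower in the same comparisons, with 10 of 10 called and a median of −6.71 in knockdown EVs and 9 of 10 and −6.90 in knockout EVs, and its part in the other list's values was not tested. miR-126-3p, known from endothelial cells and named after its values were seen, averaged 182 CPM in knockdown EVs and 76.7 CPM in knockout EVs, against 1310 CPM in control EVs, while control cells had 72.0 CPM.

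A list of regulators of cholesterol transport was read because miR-148a and miR-128-3p, miR-130b-3p and miR-301b-3p act on the LDL receptor or ABCA1, as miR-33a-5p and miR-33b-5p do on ABCA1. Of the 5, 2 were higher and 3 lower in knockdown cells, where 53.8% of all tested miRNAs were called, and 3 were higher and 1 lower in knockout cells, where 62.3% were. The list's median was −0.49 in knockdown cells and 0.69 in knockout cells. The most abundant, miR-128-3p, rose by 0.56 (SE 0.15) in knockdown cells and fell by 0.70 (SE 0.15) in knockout cells. miR-130b-3p ran the other way, at −0.49 (SE 0.15) in knockdown cells and 0.69 (SE 0.14) in knockout cells, as did miR-33a-5p, at −0.78 (SE 0.18) in knockdown cells and 1.18 (SE 0.15) in knockout cells. In EVs miR-128-3p did not pass, with 0.16 (SE 0.22) in the knockdown line and −0.30 (SE 0.14) in the knockout line.

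The miRNAs whose TMM-scaled log2 CPM followed each guide strand most closely over the 12 libraries were picked from 573 candidates, so their correlations are a description of 6 groups of 2 libraries and not a test. For miR-148a-3p they were miR-18a-5p (Pearson r = 0.943, Spearman rho 0.958), miR-301a-3p (0.901 and 0.937), miR-17-5p (0.89 and 0.972), miR-20a-5p (0.884 and 0.937) and miR-660-5p (0.864 and 0.776). miR-18a-5p averaged 529 CPM ± 33.9 in knockdown EVs, 168 ± 13.2 in knockout EVs, against 259 ± 6.31 in control EVs, and 507 ± 9.55 in knockdown cells, 95.1 ± 14.7 in knockout cells and 410 ± 17.0 in control cells. With TMM scaling miR-18a-5p was not called in knockout against control EVs (−0.25, SE 0.13, edgeR adjusted p = 0.14), unlike miR-148a-3p. In that comparison miR-301a-3p (−0.23), miR-17-5p (−0.07) and miR-20a-5p (−0.16) were not called either, while miR-660-5p was called lower (−0.68). For miR-148b-3p the closest were miR-20a-3p (r = 0.915, Spearman rho 0.825), miR-374a-3p (0.878 and 0.664), miR-424-5p (0.876 and 0.86), miR-454-3p (0.87 and 0.755) and miR-32-3p (0.869 and 0.741). For miR-152-3p they were miR-629-5p (r = 0.88, Spearman rho 0.741), miR-92b-5p (0.865 and 0.678), miR-193a-5p (0.86 and 0.762), miR-193a-3p (0.86 and 0.65) and miR-34a-5p (0.857 and 0.839). Of these, miR-193a-3p averaged only 0.158 CPM ± 0.224 in knockdown cells. Among the members themselves r was 0.799 between miR-148a-3p and miR-148b-3p, 0.79 between the arms of miR-148a, 0.36 between the arms of miR-148b and −0.652 between miR-148a-3p and miR-152-3p.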

How the data were processed

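Small RNA was measured in 12 libraries, 2 each of EVs and cells of a RAB27A knockdown, a miR-122 knockout and a control line. The authors deposited raw counts of reads per mature miRNA; the submitters' processing notes name Bowtie, cutadapt and hg19, while tool versions, allowed mismatches and the handling of multi-mapping reads were not stated there. Counts were tested with edgeR 4.0.16 (R 4.3.3) by the robust quasi-likelihood test, with TMM scaling, filterByExpr and Benjamini-Hochberg adjustment at 0.05, all tests being two-sided. Line comparisons used the 6 libraries of a fraction (613 miRNAs tested in cells, 488 in EVs), and EV against cell comparisons and interactions used all 12 libraries (574 tested). All 5 members passed the filter in each fit. The SE of a log2 fold change was its size divided by the square root of F. Levels are CPM of the library total, with a prior count of 2 for log2 CPM. Library totals ran from 164656 to 11840597 counts. Intervals of 95% and limits for a count of 0 (3 counts) cover counting error only. The members, lists and tests were chosen with earlier results of these data known. Named genes were all 5 members, up to 3 of the most abundant of each list (every one of the list whose seed is offset by 1 base, and markers at 0), and the 5 miRNAs closest to each 3p arm by Pearson correlation. Outside this rule, values of miR-126-3p, not among the 3 most abundant of its list, were given after they were seen. Alternatives were RLE factors, total counts, no filter, DESeq2 1.42.0, a GC correction by lowess (span 0.5, without miR-148a-5p), fits of 4 libraries, a replicate block and leaving out each library. The main test was run on simulated data for the comparisons of the knockdown and knockout lines with control and of EVs with cells. The simulated spread was the same for every miRNA, so it cannot show how the test behaves at the spread of these libraries. The interactions, the direct comparisons of knockout with knockdown and the alternatives were not simulated.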

Additional observations from a re-analysis of the deposited data

Results flagged for a closer look

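The difference between EVs and cells was not the same in all lines for 3 members, by the interaction test of edgeR. In the miR-122 knockout line the EV over cell log2 fold change exceeded that of the control line by 1.46 for miR-148a-3p and by 1.37 for miR-148b-3p, and both calls held in all 19 alternatives. For miR-152-3p the interaction was −0.54 in the knockout line and 0.88 in the RAB27A knockdown line, each against the control line. The knockout call of miR-152-3p was lost in 9 of 19 alternatives, 8 of them omissions of 1 library, and its knockdown call was lost without knockdown EV replicate 1 (0.51, adjusted p = 0.224). Control libraries are shared by these comparisons. Knockdown EV libraries held 164656 and 170366 counts, and the part of depth in the value of miR-152-3p was not tested.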

How the results depend on the processing

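Of the members' log2 fold changes under the alternatives, 752 kept their direction and side of the threshold. With the direction kept, 40 lost a call and 35 gained one. A further 61 changed sign, whether or not their call changed as well. In knockout cells and EVs the fall of miR-148a-3p held in all 14 alternatives and that of miR-148a-5p in the 12 run for it, which leave out both GC corrections.

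With the GC correction, which leaves 4 members, 2 were called in the knockdown interaction and in knockdown EVs (1 each in the main test), 3 in knockout cells (5), 1 in knockout EVs (2) and 1 in knockdown EVs over cells (4). That last count was 2 with total counts and 2 in the fit of 4 libraries, and the knockdown EV count was 2 without the filter.

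Leaving out 1 library in turn, so that the lone library left is assumed to vary like the other groups, gave 1 to 4 members called in knockdown cells, 0 to 3 in knockdown EVs and 2 to 4 between knockout and knockdown EVs. The cause was not tested.

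Same-numbered replicates had deviations that correlated between −0.10 and 0.08, so no pairing by number was seen over the tested miRNAs. Such correlations cannot exclude that same-numbered libraries shared a culture or batch. The replicate block called miR-148b-5p in control EVs over cells (0.47) and in the knockout interaction (0.75). The block with the GC correction gave 2, 2, 3, 1 and 1 members for the GC counts above.

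Signs changed as follows. With the GC correction, and with the block added, the knockdown interaction was 0.36 and 0.34 for miR-148a-3p and 0.32 and 0.31 for miR-148b-5p. In knockdown EVs it was 0.43 and 0.43 for miR-148b-3p, 0.13 and 0.13 for miR-148b-5p and 0.18 and 0.18 for miR-152-3p. In knockout EVs it was 0.030 and 0.037 for miR-148b-5p and −0.053 and −0.052 for miR-152-3p. Between knockout and knockdown EVs it was −0.10 and −0.10 for miR-148b-5p and −0.24 and −0.24 for miR-152-3p. In control EVs over cells it was −0.035 and −0.034 for miR-152-3p.

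With total counts the knockdown interaction was 0.18 for miR-148a-3p and 0.16 for miR-148b-5p, knockdown EVs over cells 0.038 for miR-148b-3p, knockout EVs −0.33 for miR-152-3p, and knockout against knockdown EVs −0.19 for miR-148b-5p and −0.21 for miR-152-3p. Without the filter the knockdown interaction was 0.19 for miR-148a-3p and 0.17 for miR-148b-5p, knockdown cells −0.20 for miR-148a-5p, knockout against knockdown EVs 0.20 for miR-148b-3p, control EVs over cells −0.38 and knockout EVs −0.0022 for miR-152-3p. For miR-152-3p, knockout EVs were −0.056 with RLE factors, −0.055 with DESeq2 and −0.032 in the fit of 4 libraries.

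With 1 library left out, the knockdown interaction ran from −0.43 to 0.078 for miR-148a-3p, −0.33 to 0.58 for miR-148a-5p, −0.087 to 0.32 for miR-148b-3p and −9.80 to 0.86 for miR-148b-5p. Knockdown cells ran from −0.0072 to 0.093 and knockdown EVs from −0.17 to 0.57 for miR-148a-5p. For miR-148b-5p, knockdown EVs ran from −9.37 to 0.30, knockdown EVs over cells from −9.51 to 1.14, knockout EVs from −0.59 to 0.047 and knockout against knockdown EVs from −0.66 to 9.14; the extreme values have no count left in the knockdown EVs. Knockout against knockdown EVs ran from −0.18 to 0.18 for miR-148b-3p. For miR-152-3p, control EVs over cells ran from −0.21 to 0.14 and knockout EVs from −0.17 to 0.12.

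Over all miRNAs, 330 calls in knockdown cells became 196 without knockdown cell replicate 1 and 218 without replicate 2, and 201 in knockout EVs became 127 without control EV replicate 2. Total counts moved the median log2 fold change by −0.41 to 0.33, and RLE factors by −0.15 to 0.12. With total counts the share of calls that were higher was 32.4% in knockout cells (44.5% with TMM), 36.9% between knockout and knockdown cells (47.6%), 19.2% in knockout EVs (45.8%), 35.3% between knockout and knockdown EVs (56.3%), 75.6% in knockdown EVs over cells (37.8%; DESeq2 53.3%) and 52.6% in the knockdown interaction (23.4%; DESeq2 33.6%). With the GC correction the same share was 56.8% in knockdown EVs (40.7% with TMM), 41.3% between knockout and knockdown EVs (56.3%), 62.2% in knockdown EVs over cells (37.8%) and 59.1% in the knockdown interaction (23.4%). Depth limited the 5p arms in knockdown EVs, with 0 to 16 counts.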
